A study of Arabidopsis thaliana with 12 samples.

Results

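Roots of Arabidopsis thaliana carrying the hni9 mutation were compared with wild-type (WT) roots under an ample nitrogen supply, using 6 of the 12 arrays of the series. Plants of both genotypes stood at steady state on 10 mM NH4NO3, and each genotype was measured on 3 arrays from separate biological replicates. The comparison covered every probe set except the controls, 22746 of 22810. The other 6 arrays hold the same genotypes on 0.3 mM KNO3, called low nitrogen here, and enter as a second comparison of the genotypes that shares no array with the first. Salt and amount both change between the supplies and cannot be told apart. In the titles the mutant reads hni9-1, hni9-2 and hni9 in replicates 1, 2 and 3, and the sources used here do not say whether these numbers name alleles. Plant age, accession and the kind of mutation are likewise not given in them.

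HNI9 encodes IWS1, a conserved factor that in yeast binds the elongation factor Spt6 and travels with RNA polymerase II. In Arabidopsis it is known for the repression of high-affinity nitrate uptake when nitrogen is ample, and for brassinosteroid-induced gene expression. Arabidopsis roots make a broad set of secondary metabolites, among them terpenoids, phenolic glucosides, methyl esters and glucosinolates, and their walls are remodelled by secreted peroxidases, expansins and chitinases. No probe set carried the name of HNI9 or of the nitrate transporter NRT2.1, so neither was analysed here and the mutation was not checked through its own transcript.

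The deposited values are probe set intensities on a linear scale. Changes are log2 fold changes of intensity plus 16, hni9 minus WT, given ± the standard error of limma with 3 arrays per group, and adjusted p-values are those of limma over all probe sets. A probe set was called when its adjusted p lay under 0.05. Adding 16 compresses the changes of dim genes, and 10.8% to 12.9% of the values of the high nitrogen arrays lay under 16. Array medians lay between 210 and 221 at high nitrogen. The GAPDH controls, read near the 3′ and the 5′ end of their transcript as a measure of RNA integrity and labelling, had a ratio (3′ over 5′) of 1.31 to 1.35 in the WT arrays and 1.03 to 1.25 in the hni9 arrays, so the groups did not overlap. The part of that ratio in the results was not tested. Of 5 measured green tissue genes, which mark shoot material, 0 were called by limma (2 were lower at an unadjusted p under 0.05). Their summed intensity was 1163 to 1536 in WT and 429 to 1124 in hni9.

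In hni9 at high nitrogen 1744 probe sets were called, 7.67% of those tested, with 759 higher (3.34%) and 985 lower (4.33%). The falls were larger than the rises. The median change was 0.51 among the calls that were higher and -0.83 among those that were lower, against 0.03 over all probe sets. At least 2-fold changes were found for 103 probe sets that were higher and 337 that were lower, and at least 4-fold changes for 15 and 49. The 3 hni9 arrays lay above the 3 WT arrays for 13.5% of all probe sets and below them for 12.3%. Among the calls the arrays were apart in this way for 757 of the 759 higher and 981 of the 985 lower. Lack of overlap thus adds little to a call. Bright probe sets were called more often. Of the dimmest 20% by mean intensity 0.593% were higher and 0.418% lower, and of the brightest 20% 10.3% and 9.14%. Without 1 array at a time the total was 1093, 1048 and 1049 without WT replicates 1, 2 and 3, and 1129, 1529 and 1177 without hni9 replicates 1, 2 and 3. Of the 1744 calls, 738 passed in all 6 of these fits, 232 higher and 506 lower. Centring each array on its median gave a split in which 51.4% of the calls were higher, against 43.5% with the values as deposited.

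**Figure D1:**
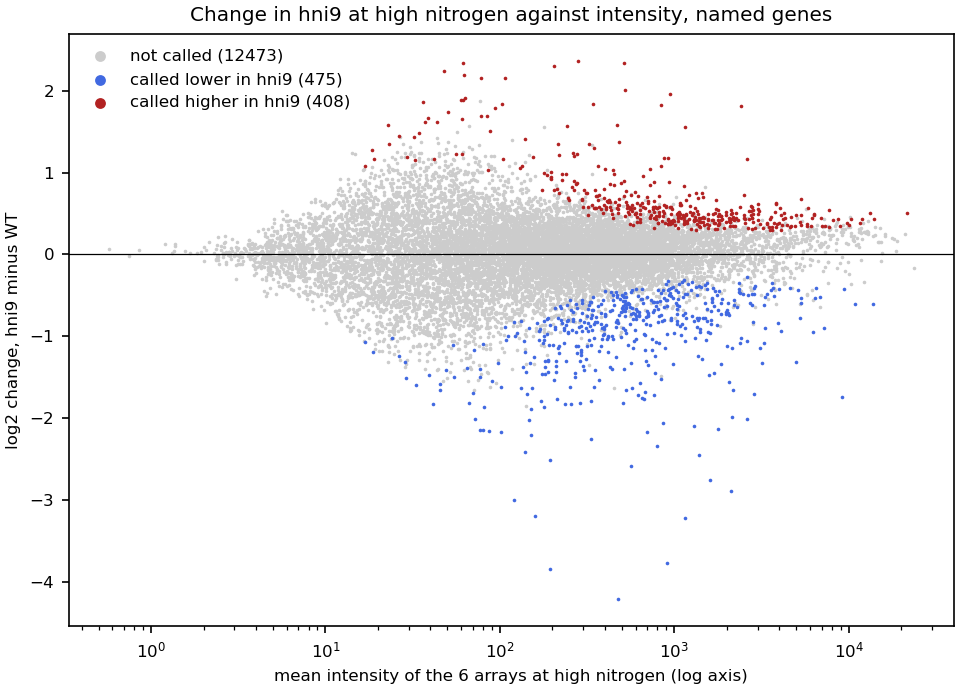
Log2 change of hni9 against WT at high nitrogen (vertical axis) for 13356 named genes, against the mean intensity of the 6 arrays (horizontal log axis), with 1 point per gene. Red points mark the 408 genes called higher and blue points the 475 called lower, and the blue points reach further from 0 than the red ones.

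The plot of change against intensity shows the asymmetry among genes that the annotation names, where the lowest point lies at -4.21 and the highest at 2.37. Of these 13356 genes 6.61% were called, 3.05% higher and 3.56% lower, and their median change was 0.03. Another 855 called probe sets carry no single gene and are not described further. Genes named below are first the 20 largest changes in each direction among called genes whose arrays did not overlap. The mean of their brighter group also had to exceed the median of all values, 212. Members of gene families and runs of neighbouring genes come after them.

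The largest falls began with enzymes of secondary metabolism. TPS-CIN, the cineole synthase that makes root monoterpenes, had intensities of 692, 913 and 1126 in WT and of 60.8, 61.2 and 3.94 in hni9. All 3 mutant arrays lay far below the WT arrays, and replicate 3 was the lowest of them. The change was -4.21 ± 0.39 (limma adjusted p = 1.52e-05), or -3.56 without hni9 replicate 3. AT1G78990, a BAHD acyltransferase, had 337, 425 and 358 in WT and 4.23, 4.25 and 31.5 in hni9. It changed by -3.85 ± 0.30 (adjusted p = 3.28e-06). The mutant values of both genes lie near the bottom of the intensity range, so the sizes depend on the value added. With 1 and 64 added they were -5.07 and -3.23 for TPS-CIN and -5.27 and -2.51 for AT1G78990.

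Enzymes that modify phenolics and other small molecules also fell, though AT2G16005 (-3.77) and AT5G57785 (-3.23), described below, ranked ahead of them. The oxoglutarate-dependent oxygenase gene AT1G52820 had 290, 323 and 276 in WT and 9.19, 40.3 and 11.9 in hni9, a change of -3.19 ± 0.40 (adjusted p = 0.000229). UGT84A1, which glucosylates hydroxycinnamic acids, had 241, 141 and 299 in WT against 21.7, 4.79 and 15.9 in hni9. Its change was -3.00 ± 0.53 (adjusted p = 0.00308). The groups did not overlap for either gene, as the choice of the largest falls required. With 1 and 64 added the changes were -4.08 and -2.11 for AT1G52820 and -4.06 and -1.86 for UGT84A1. UGT84A1 lost its call with replicates 1 and 2 alone (adjusted p = 0.0522).

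A pair of methyltransferase genes of the SABATH family, whose members esterify small acids with a methyl group, were bright in WT. AT5G37990 had 3807, 3675 and 3628 in WT and 552, 317 and 645 in hni9, a fold of 7.44 (change -2.90 ± 0.24, adjusted p = 5.12e-06). AT5G38020 had 2446, 2155 and 2417 against 452, 272 and 578, a change of -2.45 ± 0.35 (adjusted p = 0.000716). In both genes the WT arrays lay close together and hni9 replicate 2 was the lowest array.

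Other large falls were in genes of unknown or structural roles. AT2G16005, which encodes a protein with an MD-2-related lipid recognition domain, had 1618, 1596 and 1868 in WT and 89.9, 78.5 and 180 in hni9. The change was -3.77 ± 0.26 (adjusted p = 1.17e-06). AT5G57785, a gene of unknown function, had 2533, 1999 and 1745 against 225, 135 and 287, a change of -3.23 ± 0.29 (adjusted p = 1.12e-05). AT1G64370 had 2655, 2849 and 2856 against 321, 457 and 435 (change -2.75 ± 0.24, adjusted p = 1.05e-05). None of these 3 genes lost its call under any alternative run. The major latex protein-like gene AT4G14060 had 1022, 808 and 1091 in WT and 144, 116 and 192 in hni9, a change of -2.58 ± 0.18 (adjusted p = 1.17e-06). AT1G30750 had the smallest standard error of the 20 falls, with 2008, 2172 and 2113 in WT and 538, 403 and 504 in hni9. Its change was -2.10 ± 0.12, with the lowest adjusted p of the 20 falls (3.47e-07). AT2G37750 changed by -2.13 ± 0.15 (adjusted p = 1.17e-06), from 2635, 3307 and 2747 to 569, 809 and 585.

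The rest of the 20 falls held cell wall, kinase and other genes. AT5G19800, a hydroxyproline-rich glycoprotein gene, changed by -2.51 ± 0.31, and the polygalacturonase gene AT1G65570, of a class of pectin-cutting enzymes, by -2.41 ± 0.38. With 64 added these were -1.85 and -1.60. AT4G01390, with a TRAF-like domain, changed by -2.34 ± 0.36, and the leucine-rich repeat kinase gene AT1G51830 by -2.17 ± 0.30. The lipid transfer gene AT4G22610 changed by -2.06 ± 0.42 and lost its call with replicates 1 and 2 alone (adjusted p = 0.0814). AT2G16760 changed by -2.25 ± 0.41, or by -1.58 without hni9 replicate 3. The RING-type gene AT2G47560 changed by -2.20 ± 0.47 and the kinase gene AT5G59680 by -2.02 ± 0.45. Both of these lost their call without WT replicate 1 (adjusted p = 0.0509 and 0.0559), and AT2G47560 had -2.80 without hni9 replicate 1. Of the 20 falls, 18 were called in all 6 fits that leave out 1 array.

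**Figure D2:**
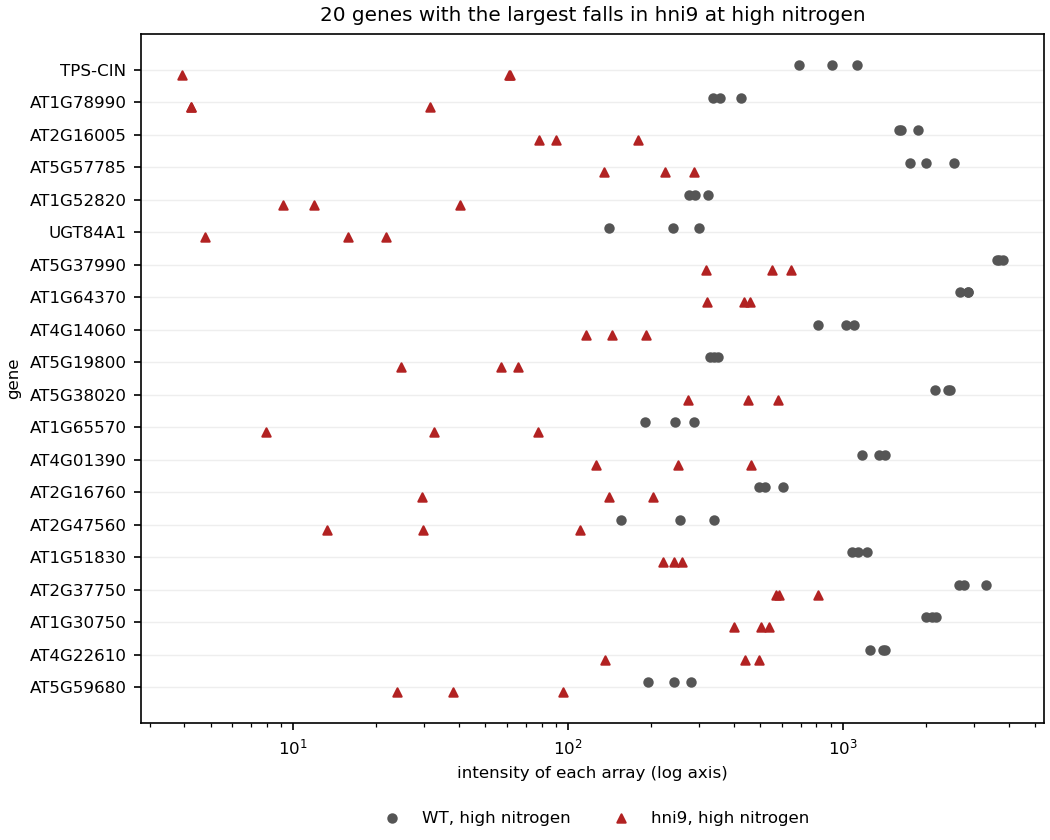
Intensity of each array (horizontal log axis) for the 20 genes with the largest falls in hni9 at high nitrogen, with 3 WT arrays (grey circles) and 3 hni9 arrays (red triangles) per gene. In each gene the triangles lie left of the circles, as the choice of genes required. Group means differ by at least 4.06-fold on the fitted scale.

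The rises were smaller and began with metabolic and stress-related enzymes. AT5G43450, another oxoglutarate-dependent oxygenase gene, had 111, 42.7 and 97.7 in WT and 463, 510 and 447 in hni9. It rose by 2.37 ± 0.23 (adjusted p = 2.52e-05), a fold of 5.16. ICL, an isocitrate lyase and thus part of the glyoxylate cycle, which turns fatty acid carbon into sugar precursors, had 156, 146 and 176 against 880, 1022 and 726. Its rise was 2.34 ± 0.35 (adjusted p = 0.00108). The patatin-like lipid acyl hydrolase gene AT5G43590 had 68.9, 60.6 and 42.8 against 337, 438 and 272, a rise of 2.31 ± 0.28 (adjusted p = 0.000178). In these genes every mutant array was above every WT array, as the choice of the largest rises required.

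A chitinase gene, peroxidase genes and a leucine-rich repeat gene also rose. In the families as a whole, 3 class III peroxidases rose and 13 fell, and 3 chitinases rose and 3 fell. ChiC, a class V chitinase, had 1210, 895 and 1045 in WT and 4557, 2761 and 4063 in hni9. Its rise was 1.82 ± 0.16 (adjusted p = 1.05e-05). The class III peroxidase gene AT1G49570 had 418, 348 and 360 against 1210, 1740 and 1597, a rise of 1.96 ± 0.15 (adjusted p = 3.00e-06). AT2G34930, a leucine-rich repeat gene, rose by 2.02 ± 0.25 (adjusted p = 0.000184), from 195, 199 and 181 to 877, 572 and 1107. The peroxidase gene AT5G64110 rose by 1.35 ± 0.22 (adjusted p = 0.00214), from 140, 207 and 178 to 412, 566 and 431. Groups did not overlap in any of these genes, as the choice of the largest rises required.

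AT1G76470, of the NAD(P)-binding reductases, rose by 1.84 ± 0.18 (adjusted p = 2.68e-05), from 169, 102 and 154 to 473, 576 and 579. AT2G29500, a cytosolic small heat shock protein, rose by 1.56 ± 0.25 (adjusted p = 0.00145), from 529, 582 and 584 to 1639, 2186 and 1358. The histone H2B gene AT3G53650 rose by 1.20 ± 0.20 (adjusted p = 0.00222), from 127, 168 and 170 to 358, 407 and 358. AT1G17960, a threonyl-tRNA synthetase, rose by 1.35 ± 0.27 and AT5G40590, with a C1 domain, by 1.24 ± 0.18. The mutant arrays of these 5 genes were all above the WT arrays, again a condition of the choice.

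GH3.3, which conjugates auxin to amino acids, scattered within the mutant. It had 410, 305 and 259 in WT and 1746, 505 and 1803 in hni9, so that replicate 2 stood apart from the other mutant arrays while still lying above WT. The rise was 1.82 ± 0.38 (adjusted p = 0.00844), or 2.42 without hni9 replicate 2, and with replicates 1 and 2 alone it was not called (adjusted p = 0.203). EXPB2, a beta-expansin that loosens walls, scattered in the same way, with 360, 173 and 610 in hni9 against 121, 105 and 87.9 in WT. Its rise of 1.57 ± 0.39 (adjusted p = 0.0258) was called in 1 of 6 fits that leave out an array, and its adjusted p reached 0.114 there. The genes AT1G65370, AT5G19890, AT1G33790, AT2G43660 and AT3G27950 rose by 1.19 to 1.37 and were each called in 1 to 3 of those 6 fits. Of the 20 rises, 14 were called in all 6.

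**Figure D3:**
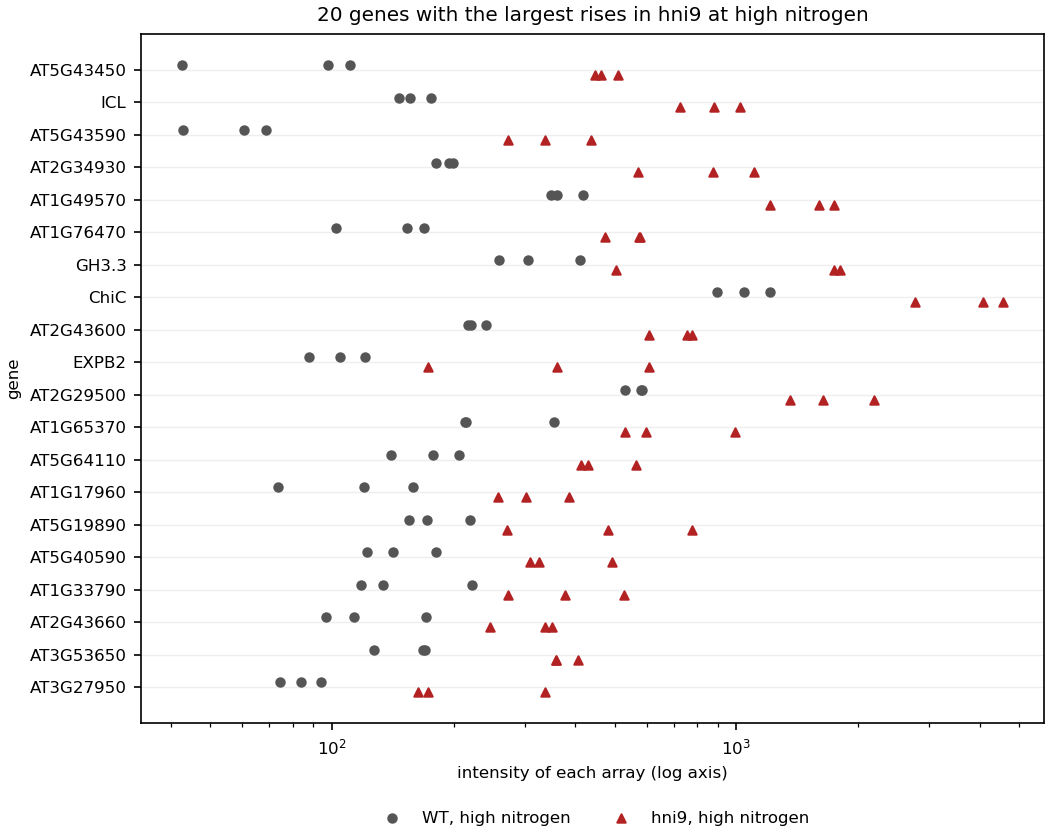
Intensity of each array (horizontal log axis) for the 20 genes with the largest rises in hni9 at high nitrogen, with 3 WT arrays (grey circles) and 3 hni9 arrays (red triangles) per gene. In each gene the triangles lie right of the circles, as the choice of genes required, and the fitted fold changes run from 2.29 to 5.16.

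Gene families are described by their counts and their median change, beside the background of named genes of 3.05% higher, 3.56% lower and a median of 0.03. Of the 13356 named genes, 7176 had changes above 0 and 6180 below 0. Among 55 class III peroxidases, secreted enzymes that cross-link or loosen wall polymers, 13 fell and 3 rose, and the median change was -0.27. The count of falls was 8 without WT replicate 2. AT2G41480 changed by -1.81 ± 0.17 (adjusted p = 1.72e-05), from 671, 925 and 810 in WT to 196, 195 and 260 in hni9. AT4G33420 changed by -1.27 ± 0.09 (adjusted p = 2.26e-06), from 1902, 2081 and 2184 to 856, 781 and 887. AT2G35380 changed by -1.17 ± 0.14 (adjusted p = 0.000147), from 904, 830 and 1110 to 442, 356 and 440. Members thus moved in opposite directions, since AT1G49570, AT5G64110 and AT5G19890 rose by 1.30 to 1.96.

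Of 15 major latex protein-like genes, small cytosolic proteins with a hydrophobic pocket, 5 fell, with a median of -0.82. AT4G23670 was among the brightest genes that fell, at 14183, 13673 and 14104 in WT against 4554, 3940 and 4052 in hni9. Its change was -1.74 ± 0.11 (adjusted p = 8.79e-07). AT3G26450 changed by -1.34 ± 0.15, from 2701, 2862 and 2377 to 1058, 1178 and 880, and AT4G23680 by -1.04 ± 0.11, from 1915, 2006 and 2201 to 1007, 1058 and 885. The arrays of the genotypes were apart in all 3 genes. This list was first drawn up from earlier results of these arrays, so its count is not independent evidence of its direction. The other lists were also chosen with earlier results of these data known.

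Of 19 terpene synthases 3 fell, with a median of -0.18. Beside TPS-CIN these were AT3G32030 at -1.89 ± 0.34 and AT4G20230 at -1.11 ± 0.18, the latter not called with replicates 1 and 2 alone (adjusted p = 0.0547). The AT3G32030 probe set can also bind related transcripts, as its s suffix marks. Of 43 BAHD acyltransferases 3 fell, and their median was -0.06. BAT1 and FACT stood far behind AT1G78990, at -0.68 ± 0.15 and -0.78 ± 0.21, and were called in 5 and 1 of the 6 fits that leave out an array. The count was 1 without WT replicate 1. Of 40 oxoglutarate-dependent oxygenases 4 fell and 2 rose, with a median of 0.04, and the falls were 1 without WT replicate 3 and 2 without each other array, while the rises were 1 without WT replicate 2 or hni9 replicate 1. In the SABATH family 4 of 16 fell, with a median of -0.42. The 2 beyond AT5G37990 and AT5G38020 were NAMT1 at -1.83 ± 0.41 and AT5G37970 at -1.42 ± 0.32. Both are dim, and they were called in 3 and 4 of the 6 fits that leave out an array. NAMT1 had 53.5, 52.4 and 113 in WT and 2.36, 23.2 and 2.91 in hni9, and the count for the family was 2 without hni9 replicate 3.

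Of 47 UDP-glycosyltransferases, which transfer sugars to small molecules, 7 fell and 2 rose, and the median was 0.00. The falls were 3 without WT replicate 3 or hni9 replicate 3, and 4 without hni9 replicate 2, and the rises were 0 without WT replicate 3 or hni9 replicates 1 or 3 and 1 without WT replicates 1 or 2. UGT71C1 had 890, 805 and 974 in WT against 489, 564 and 517 in hni9, a change of -0.75 ± 0.10 (adjusted p = 0.00033). UGT72E1, which acts on the aldehyde precursors of lignin, had 1928, 2006 and 2042 against 1317, 1232 and 1152, a change of -0.69 ± 0.12 (adjusted p = 0.00258). The related genes UGT71C3 and UGT71C4 changed by -0.63 ± 0.18 and -0.53 ± 0.12. UGT78D1 and UGT78D2, which attach sugars to flavonols, changed by -1.46 ± 0.39 and -0.80 ± 0.19. UGT71C3, UGT78D1 and UGT78D2 were picked out after their values had been seen.

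Of 26 cytochromes P450, oxidases that act on many small molecules, 3 fell and 1 rose, the dim CYP71B5, which was called in 0 of the fits that leave out an array. CYP71B37 stood at -1.37 ± 0.14 (adjusted p = 3.24e-05), having gone from 598, 598 and 678 in WT to 237, 214 and 245 in hni9. CYP71B23 changed by -0.99 ± 0.14, from 985, 922 and 822 to 419, 471 and 461. Of 12 glutathione transferases 3 fell and 1 rose. GSTU28, the member that rose, had 337, 336 and 352 in WT and 705, 760 and 491 in hni9, a rise of 0.88 ± 0.17 (adjusted p = 0.00499). The 3 falls, GSTU22, ATGSTF13 and GSTU27, lost calls without single arrays, down to 1 without any WT array or hni9 replicate 1. BCAT4, the aminotransferase at the entry to methionine-derived glucosinolates, had 5064, 3453 and 4204 in WT and 2075, 1487 and 2201 in hni9. Its change was -1.14 ± 0.15 (adjusted p = 0.000476), and the genotypes did not overlap.

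Enzymes that loosen or rebuild walls moved in both directions. Of 18 expansins 4 fell and 3 rose, with a median of -0.33. The falls were 2 without WT replicate 3, and the rises were 0 without WT replicate 1 and 1 without each other array except hni9 replicate 2. EXLB1 had 365, 414 and 448 in WT and 113, 83.4 and 116 in hni9, a change of -1.83 ± 0.25 (adjusted p = 0.000431). EXPA18 and EXPA7, both known from root hairs, differed in direction. EXPA18 had 940, 1069 and 824 against 515, 476 and 541, a change of -0.86 ± 0.13 (adjusted p = 0.00102). EXPA7 had 672, 791 and 702 against 1064, 1028 and 915, a rise of 0.47 ± 0.12 (adjusted p = 0.0235). The EXPA7 call was lost without WT replicates 1 or 3 or hni9 replicates 1 or 2, with adjusted p-values up to 0.0917. Of 9 xyloglucan endotransglucosylases, which cut and rejoin hemicellulose, XTH21 and XTH32 fell. XTH32 had 595, 434 and 560 in WT and 135, 134 and 228 in hni9, a change of -1.61 ± 0.24 (adjusted p = 0.00108). XTH21 had 226, 326 and 457 against 87.0, 46.3 and 140, a change of -1.76 ± 0.30 (adjusted p = 0.00265).

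Chitinases, enzymes that act on fungal walls and related glycans, split evenly. Of 14 measured, 3 rose and 3 fell, and that count held without each array in turn. The split ran through 6 genes that lie in a row on chromosome 2, from CHI to AT2G43620. AT2G43590 had 3794, 4480 and 4189 in WT and 1003, 762 and 1375 in hni9, a change of -2.01 ± 0.26 (adjusted p = 0.000265). The next gene, AT2G43600, had 241, 217 and 221 against 777, 756 and 610, a rise of 1.58 ± 0.15 (adjusted p = 2.68e-05). The gene after it, AT2G43610, had 2464, 2589 and 2283 against 3313, 3936 and 3551, a rise of 0.55 ± 0.11 (adjusted p = 0.00626). AT2G43620 had 0.52 ± 0.17 (adjusted p = 0.0794), CHI 0.08 ± 0.15 and AT2G43580 -0.64 ± 0.57, and these 3 were not called. Adjacent members of the cluster thus changed in opposite directions. Arrays did not overlap in the 3 that were called, as in nearly all called probe sets. AT2G43610, CHI, AT2G43580 and AT2G43620 were picked out after their values had been seen.

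Secreted signalling peptides of the RALF-like family, ligands of receptor kinases at the root surface, fell in 4 of 11 cases, with a median of -0.34. RALFL32 had 2215, 2249 and 2353 in WT and 1376, 1310 and 1070 in hni9, a change of -0.86 ± 0.11 (adjusted p = 0.000262). RALFL27 had 532, 473 and 518 against 261, 235 and 92.7, a change of -1.41 ± 0.28 (adjusted p = 0.00717). RALFL33 and RALFL22 changed less, by -0.42 ± 0.09 and -0.34 ± 0.09, and RALFL22 was called in 0 of the 6 fits that leave out an array. Of 22 berberine bridge enzyme-like oxidases 4 fell, led by AT2G34810 at -1.86 ± 0.36. Without WT replicate 3 that count was 1, and without WT replicate 2, hni9 replicate 1 or hni9 replicate 3 it was 2.

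Since IWS1 works with RNA polymerase II, subunits of nuclear RNA polymerases were listed, a set not limited to polymerase II. Of 12 measured subunits of nuclear RNA polymerases 3 rose, and the median change was 0.42. All 12 had changes above 0, against 7176 of the 13356 named genes. The 12 changes lay between 0.03 for NRPB6B and 0.80 for NRPD7. NRPB6B and NRPD7 were picked out after their values had been seen. NRPB7 had 458, 430 and 423 in WT and 574, 642 and 614 in hni9, a rise of 0.47 ± 0.10 (adjusted p = 0.0116). NRPB6A and NRPB12 rose by 0.42 ± 0.11 and 0.41 ± 0.11, with no overlap of arrays. The count of 3 was 1 without any single array other than hni9 replicate 3, and 4 without that one. Of 4 Mediator subunits and 8 chromatin remodelling CHR genes 0 were called by limma (0 and 2 at an unadjusted p under 0.05, the latter above 0), with medians of 0.17 and 0.15. The elongation factor genes measured were AT2G34210 and AT5G08565, members of the Spt5 and Spt4 families, at 0.17 ± 0.35 (adjusted p = 0.854) and 0.19 ± 0.17 (adjusted p = 0.614).

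Nitrogen genes were thinly covered by name. Of 11 measured members of the nitrate and peptide transporter family 0 were called by limma in either direction, with 2 above 0 and a median of -0.30, and 3 were lower at an unadjusted p under 0.05. The largest was AT3G21670 at -0.88 ± 0.40 (adjusted p = 0.224). GTR1, a glucosinolate transporter of that family, had 609, 713 and 865 in WT against 480, 480 and 630 in hni9 (change -0.45 ± 0.15, adjusted p = 0.0956), and the groups overlapped. NRT2.5, a high-affinity nitrate transporter of starved roots, was dim in both genotypes, with 47.1, 57.1 and 50.3 in WT and 102, 15.1 and 68.8 in hni9 (change 0.01 ± 0.48). The regulator AT3G25790, of the GARP family, had -0.77 ± 0.25 (adjusted p = 0.0752). AT3G02360, of the oxidative pentose phosphate pathway that feeds nitrate reduction, had 0.21 ± 0.12 (adjusted p = 0.345).

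Plastid-encoded genes changed in small steps. Of 69 measured 9 fell, and the median was -0.25. psbH had 1493, 1435 and 1531 in WT and 674, 1117 and 646 in hni9, a change of -0.90 ± 0.20 (adjusted p = 0.0144). petA had 3702, 2999 and 3082 against 1806, 2664 and 2052, a change of -0.59 ± 0.14 (adjusted p = 0.0212). In both genes hni9 replicate 2 lay nearest to WT, and each was called in 3 of the 6 fits that leave out an array. The summed intensity of the 69 genes was 104937, 126953 and 107053 in hni9 replicates 1, 2 and 3, and 122879 to 137625 in WT. The green tissue sum showed the same array apart, with 429, 1124 and 523 in hni9. All 5 green tissue genes had changes below 0, with a median of -1.14, led by PRK at -1.66 ± 0.64 (adjusted p = 0.14), and the part of shoot material in the plastid change was not tested. Without hni9 replicate 2 the count of plastid falls was 16, without hni9 replicate 1 it was 0, without WT replicate 1 or hni9 replicate 3 it was 1, and without WT replicate 3 it was 3.

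**Figure D4:**
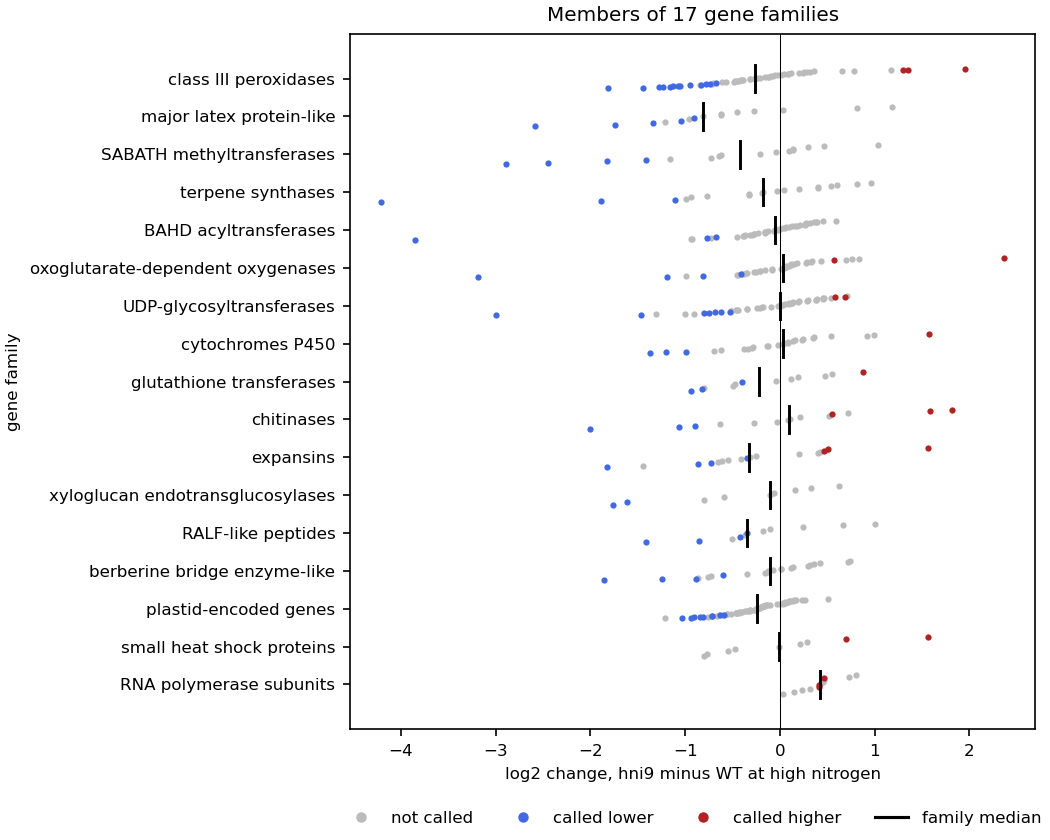
Log2 change of hni9 against WT at high nitrogen (horizontal axis) for each measured member of 17 gene families (rows), with 1 point per gene and a black bar at the family's median. Blue points were called lower and red points higher, and in the terpene synthases and acyltransferases single blue points lie far from a median near 0.

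The plot of family members shows that the 4 lowest points belong to families whose medians lie between -0.18 and 0.04. The major latex protein-like and SABATH families have medians clearly below 0, at -0.82 and -0.42, and the RNA polymerase subunits one above 0, at 0.42. Small heat shock proteins had 2 rises among 9, with a median of -0.01. The second of them, AT5G51440 of mitochondria, had 531, 477 and 587 in WT and 832, 935 and 847 in hni9, a rise of 0.70 ± 0.10 (adjusted p = 0.000817). Both rises were called without each array in turn. Where a family had calls in 1 direction only, limma called 0 members in the other. At an unadjusted p under 0.05 that other direction held 2 major latex protein-like genes, 1 each of the SABATH, terpene synthase and berberine bridge enzyme-like genes, and 0 of the acyltransferases, RALF-like peptides, xyloglucan enzymes, plastid genes, polymerase subunits and small heat shock proteins.

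Neighbouring genes were examined because runs of calls can mark a shared locus. Runs of at least 3 consecutive measured genes called in one direction numbered 9 and held 28 genes, 7 runs lower and 2 higher. The run AT5G37990, AT5G38020 and AT5G38030 joins both bright SABATH methyltransferases to a MATE efflux carrier gene. AT5G38030 had 2067, 2023 and 2276 in WT and 1058, 1047 and 1154 in hni9, a change of -0.95 ± 0.11 (adjusted p = 0.000153). A kinase run held AT1G51830, AT1G51840 and AT1G51850 at -2.17, -1.82 and -0.61. A lectin run held AT1G52050, AT1G52060 and AT1G52070, all of the jacalin type, at -0.85, -0.71 and -0.41. In the run of UBC29, AT2G16750 and AT2G16760 the ubiquitin-conjugating enzyme gene UBC29 had 1663, 1860 and 1741 against 1016, 984 and 1055, a change of -0.77 ± 0.12 (adjusted p = 0.00116).

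AER, an alkenal reductase that removes reactive carbonyls, led a run that was higher. It had 356, 259 and 338 in WT and 665, 577 and 504 in hni9, a rise of 0.85 ± 0.15 (adjusted p = 0.0029). Its neighbours AT5G16980 and AT5G16990, which encode related reductases, rose by 1.06 ± 0.26 and 0.75 ± 0.16. The runs of the kinases, the lectins, the reductases and UBC29 skip over no unmeasured protein-coding gene, nor does that of the plastid genes. The remaining runs were those of AT1G74240, AT2G38600, AT3G59340 and the plastid genes ycf4, cemA, petA and psbJ. In each of the 9 runs except that of AT5G37990 at least 1 gene lost its call without some array, the highest such adjusted p being 0.165 for AT2G38640.

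The same genotypes at low nitrogen show which differences are shared between the supplies. There 469 probe sets were called, 2.06% of those tested, with 0.730% higher and 1.33% lower. Of the 759 that were higher at high nitrogen, 59 were also called higher at low nitrogen (7.77% of them, and 35.5% of all called higher there) and 6 were called lower. Of the 985 that were lower, 174 were also called lower (17.7%, and 57.4% of those at low nitrogen) and 3 were called higher. Signs matched in 82.7% of the rises and 81.5% of the falls, against 59.5% of all probe sets. The median change at low nitrogen was 0.17 among the rises and -0.30 among the falls. These probe sets were chosen for their change at high nitrogen, so smaller medians in other arrays follow from that choice alone.

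A test of the difference itself, the change at high minus the change at low nitrogen, called 160 probe sets, 0.703% of those tested (0.259% above 0 and 0.444% below 0). Of these, 35 were among the rises and 89 among the falls at high nitrogen. The test shares its high nitrogen arrays with the choice of those probe sets, so such overlap is favoured by that choice. Without WT replicates 1, 2 and 3 at high nitrogen the total was 77, 81 and 91, and without hni9 replicate 2 it was 247. All 20 of the largest falls had changes below 0 at low nitrogen as well, and 12 of them were called there. Among the 20 largest rises 16 were above 0 and 5 were called. These genes too were chosen on arrays that enter the test. The difference between the supplies was called for 3 of the falls and 6 of the rises. Of the 19 named genes with such a call, 5 were called without the intensity trend of limma (AT1G49570, AT5G64110, AT5G43590, AT1G78990 and AT2G41730) and 0 with replicates 1 and 2 alone, where the lowest adjusted p was 0.0524 for AT1G49570.

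**Figure D5:**
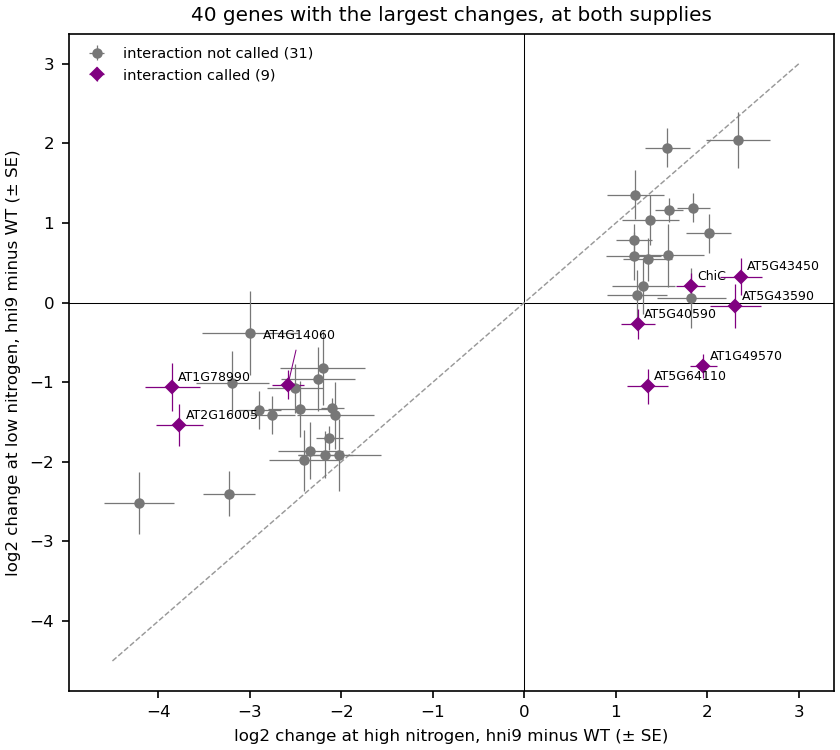
Log2 change of hni9 against WT at high nitrogen (horizontal axis) and at low nitrogen (vertical axis), each ± SE, for the 20 largest falls and 20 largest rises. The dashed line marks equal changes, and purple diamonds mark the 9 genes whose change differed between the supplies, among them AT1G49570 and AT5G64110 at the lower right.

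The plot of both supplies shows a pair of peroxidase genes that changed in opposite directions. AT1G49570 had 408, 446 and 367 in WT and 269, 211 and 207 in hni9 at low nitrogen, a change of -0.79 ± 0.15 (adjusted p = 0.013). The change at high nitrogen exceeded it by 2.75 ± 0.21 (adjusted p = 3.41e-05). AT5G64110 had 233, 147 and 159 in WT and 69.4, 86.2 and 75.4 in hni9 at low nitrogen, a change of -1.05 ± 0.22 (adjusted p = 0.0248). Its difference between the supplies was 2.40 ± 0.32 (adjusted p = 0.00396). The mutant arrays of both genes lay above WT at high nitrogen and below WT at low nitrogen, while the WT levels at the supplies differed by 0.11 (adjusted p = 0.792) and 0.03 (adjusted p = 0.977). Other members of the family also differed between the supplies. AT2G41480 had -0.15 ± 0.17 at low nitrogen, and its difference was -1.66 ± 0.24 (adjusted p = 0.00553).

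Further rises differed between the supplies, 3 of them in genes that were called higher at low than at high nitrogen in WT. That WT comparison, in which 2.84% of probe sets were higher and 2.90% lower at low nitrogen, uses the same WT arrays at high nitrogen, so its values are only set beside those of the mutant. ChiC had 2990, 3814 and 3188 in WT and 3777, 3709 and 4017 in hni9 at low nitrogen, a change of 0.21 ± 0.16, and the difference between the supplies was 1.61 ± 0.23 (adjusted p = 0.00491). In WT it was higher at low than at high nitrogen by 1.65 (adjusted p = 1.94e-05). AT5G43450 had 0.32 ± 0.23 at low nitrogen, a difference of 2.04 ± 0.32 (adjusted p = 0.00947), and was higher in WT at low nitrogen by 2.39 (adjusted p = 1.89e-05). AT5G40590 had -0.27 ± 0.18 at low nitrogen, a difference of 1.51 ± 0.26 (adjusted p = 0.0161), and was higher in WT at low nitrogen by 2.97 (adjusted p = 5.28e-07). The mutant at high nitrogen reached 4557 for ChiC and 510 for AT5G43450 at most, near the WT values at low nitrogen, but 492 for AT5G40590, below the 1106 to 1338 there. AT5G43590 had -0.04 ± 0.28 at low nitrogen, a difference of 2.35 ± 0.39 (adjusted p = 0.0135).

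ICL and AT2G29500, by contrast, were higher in hni9 at both supplies. ICL rose by 2.04 ± 0.35 at low nitrogen (adjusted p = 0.00756), with a difference between the supplies of 0.30 ± 0.50 (adjusted p = 0.893). The heat shock gene AT2G29500 rose by 1.94 ± 0.25 at low nitrogen (adjusted p = 0.000754), with a difference of -0.38 ± 0.35 (adjusted p = 0.77). TPS-CIN was lower at both, at 771, 819 and 730 in WT and 128, 118 and 119 in hni9 at low nitrogen. That change was -2.52 ± 0.39 (adjusted p = 0.00302), and its difference of -1.69 ± 0.55 was not called (adjusted p = 0.225). AT1G78990 had 324, 399 and 396 in WT and 193, 144 and 175 in hni9 at low nitrogen, and its difference was -2.79 ± 0.43 (adjusted p = 0.00693). AT2G16005 had 152, 209 and 238 against 62.0, 44.4 and 67.1, a change of -1.54 ± 0.26, and its difference was -2.23 ± 0.37 (adjusted p = 0.012). In WT the low minus high nitrogen difference of this gene was -3.01 (adjusted p = 6.52e-06).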

How the data were processed

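Root RNA was measured on Affymetrix arrays, and 12 arrays in 4 groups of 3 were grouped by genotype and supply from the labels. The deposited values are the authors' probe set intensity on a linear scale. The trimmed mean of every array (2% of values left out at each end) is 500, a scaling read from the values. How probes were summarised is not stated in the sources used here. Control probe sets (64) were left out. Values were transformed as log2(intensity + 16), with no normalization between arrays. limma 3.58.1 in R 4.3.3 fitted 1 mean per group to all 12 arrays (lmFit and eBayes, with a trend of the variance over intensity), with Benjamini-Hochberg adjustment over 22746 probe sets at a false discovery rate of 0.05. Code was tested on simulated data. The number of arrays limits the precision.

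Of the probe sets, 13513 carry a single gene in the annotation and 503 carry several, while 8730 had no entry. A locus was found for 13436 of those with a single gene, and the brightest probe set stood for each of 146 genes with several. Neighbour order, from start coordinates, and some names came from RefSeq's TAIR10.1 table. Coordinates served only for that order. Named genes were the 20 largest changes in each direction among called, non-overlapping genes whose brighter group exceeded, in its mean, the median over probe sets, up to 4 called members of each of 70 lists by adjusted p (or 2 uncalled members of a list with no call), and members of runs. Genes that fall outside this rule are said to be so where they are named, and members given only as parts of a count are not. The comparison, the members and the lists were chosen with earlier results of these data known, and lists are described by counts and medians without a test. Whether replicate numbers pair the arrays was checked at high nitrogen. Arrays with the same number had correlations of deviations from their group means of 0.0531, 0.0495 and 0.147. Unlike numbers had 0.0274 and 0.0373 within replicates 1 and 2, and -0.0835 to -0.0708 where replicate 3 met another number. Replicate 3 thus stood apart from the others. The labels pair no samples, so numbers were not used as a block in the main fit. Alternatives covered the value added, scaling, the trend, a filter on dim probe sets, the arrays fitted, the block and leaving out each array.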

Additional observations from a re-analysis of the deposited data

Results flagged for a closer look

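For 19 named genes the change in hni9 differed between high and low nitrogen by the limma test of that difference (adjusted p under 0.05), of which 14 were called without each high nitrogen array in turn, 5 without the intensity trend and 0 with replicates 1 and 2 alone. These genes were named for their change at high nitrogen, on arrays that the test uses, so the choice favours such calls. Values are log2 changes at high nitrogen less those at low nitrogen. Among genes that rose at high nitrogen, they were 2.75 for AT1G49570, 2.51 for AT2G41730, 2.40 for AT5G64110, 2.35 for AT5G43590, 2.04 for AT5G43450, 1.61 for ChiC, 1.51 for AT5G40590 and 1.03 for AT5G51440. AT2G41730 had 404, 335 and 387 in WT and 742, 416 and 891 in hni9 at high nitrogen, and 3576, 3899 and 3881 against 1153, 1029 and 1188 at low nitrogen, and at high nitrogen it was called in 1 of the 6 fits that leave out an array. Its probe set carries the x suffix of probes that can bind other transcripts.

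Among genes that fell at high nitrogen the differences were -2.79 for AT1G78990, -2.42 for AT2G34810, -2.23 for AT2G16005, -1.66 for AT2G41480, -1.55 for AT4G14060, -1.11 for AT3G26450, -1.09 for AT4G23680, -1.02 for CYP71B37, -0.80 for AT4G23670, -0.79 for UGT71C1 and -0.73 for AT4G33420. Those of AT2G34810, AT4G23670, CYP71B37, AT3G26450 and AT4G33420 were not called in some of the fits without 1 array at high nitrogen. The highest adjusted p there was 0.129 for AT2G34810 (without WT replicate 3), 0.0926 for AT4G23670 (without WT replicate 1), 0.0848 for CYP71B37 (without WT replicate 3), 0.0969 for AT3G26450 (without WT replicate 2) and 0.0692 for AT4G33420 (without WT replicate 3). AT2G34810, a berberine bridge enzyme-like gene, had 136, 106 and 154 in WT and 60.8, 20.1 and 7.92 in hni9 at high nitrogen, against 89.0, 107 and 92.6 in WT and 174, 136 and 139 in hni9 at low nitrogen.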

How the results depend on the processing

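The count of 1744 probe sets called at high nitrogen was 929 without the intensity trend (299 higher, 630 lower) and 482 with replicates 1 and 2 of every group alone (130 higher, 352 lower). Leaving out 1 of the 6 arrays gave 1048 to 1529 in all, 392 to 605 higher and 621 to 924 lower, where fewer arrays were fitted. The 440 probe sets of at least 2-fold became 280 with 64 added and 264 with replicates 1 and 2 alone, and lay between 348 and 462 without 1 array. The 160 calls of the difference between the supplies became 21 without the trend and 1 with replicates 1 and 2 alone, and 77 to 247 without 1 array. Centring the arrays turned the split to 897 higher and 848 lower and moved the median change of all probe sets from 0.03 to 0.06. With the replicate number as a block 2063 were called (947 higher, 1116 lower), although the numbers pair no samples by the labels. Each array correlated best with its own number, which is a hint from the data and not the design. Of 143 called named genes 0 changed direction under the alternatives run, while 7 of the 37 that were not called changed sign under at least 1. Calls of named genes were lost 441 times over all alternatives, 56 of these without the trend and 79 with replicates 1 and 2 alone, and were gained 14 times. Without the trend 0 plastid genes and 0 glutathione transferases fell and 0 expansins rose. The causes of these shifts were not tested. Dim probe sets limit what can be seen, since 10.8% to 12.9% of values lay under the 16 added.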

Other observations

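For all lists in this section the background of named genes at high nitrogen was 3.05% higher and 3.56% lower. Of the 13356 named genes, 7176 had changes above 0 there. At high nitrogen 2 of 33 genes of ubiquitin conjugation and cleavage rose and 2 fell. The ubiquitin protease gene UBP26 had 213, 166 and 164 in WT and 330, 419 and 308 in hni9, a rise of 0.90 ± 0.19 (limma adjusted p = 0.00861), and the ubiquitin ligase gene PUB23 had 583, 591 and 683 against 356, 433 and 373, a change of -0.66 ± 0.12 (adjusted p = 0.00329). The other called members were UBP23 at 0.49 and UBC29 at -0.77. Of 8 aldehyde dehydrogenases 1 rose and 1 fell, ALDH2C4 at -0.42 ± 0.11. ALDH7B4, the one that rose, had 4191, 4013 and 4285 against 5923, 6051 and 5491, a rise of 0.48 ± 0.09 (adjusted p = 0.00619). The beta-glucosidase gene BGLU44 had 579, 445 and 546 against 190, 107 and 129, a change of -1.80 ± 0.34 (adjusted p = 0.00449), and was the 1 call among 20 of its family. That is 5% of the family, against 6.61% of all named genes called in either direction. With replicates 1 and 2 alone the adjusted p was 0.0592, 0.0793, 0.0558 and 0.0939 for UBP26, PUB23, ALDH7B4 and BGLU44. Of 29 serine carboxypeptidase-like genes 2 fell and 1 rose. Beside scpl31 these were scpl48 at -0.62 and the dim scpl16 at 1.65. ALDH2C4 and scpl16 were each called in 2 of the 6 fits that leave out an array. The largest fall, scpl31, had 285, 260 and 275 against 85.2, 39.6 and 87.6, a change of -1.79 ± 0.29 (adjusted p = 0.00159), with -1.77 at low nitrogen.

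The flavonol glycosyltransferase genes UGT78D2 and UGT78D1, picked out after their values had been seen, had changes of -0.80 and -1.46 at high nitrogen and of 0.76 and 0.91 at low nitrogen. The difference between the supplies was -1.56 for UGT78D2 (adjusted p = 0.0169) and -2.38 for UGT78D1 (adjusted p = 0.0789).

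Of 8 mitochondrial retrograde genes, a list taken from earlier results of these arrays, all had changes above 0 at high nitrogen with a median of 0.74, and 3 were called. At low nitrogen 1 was called higher and 4 lower, with a median of -1.29. The count of 3 was 7 without hni9 replicate 2 and 1 without WT replicate 2, WT replicate 3, hni9 replicate 1 or hni9 replicate 3. Of 7 hypoxia core genes, a list of the same origin, 1, AT1G72940, was called higher at high nitrogen, and 0 without each single array other than hni9 replicate 2. Changes of the 7 at high nitrogen were above 0 for 3 and below 0 for 4, with a median of -0.30. At low nitrogen 0 were called higher and 2 lower, with a median of -0.98.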
